A study of Homo sapiens with 6 samples.

Results

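The genes described here are 10 noncoding genes that carry small nucleolar RNAs (snoRNAs) in their introns: GAS5, SNHG1, SNHG5, SNHG6, SNHG7, SNHG8, SNHG12, SNHG15, SNHG16 and ZFAS1. They were chosen by name, with earlier results of these data known. All 10 were found among the 35993 genes of the deposited gene table and among the 14728 genes that had enough reads to be tested. Their 60 transcript variants were taken from the 81203 transcripts of the transcript table. The cells were MIA PaCa-2, a long-established line of human pancreatic carcinoma, sequenced in 3 untreated libraries and in 3 libraries from cells given rhCYGB at 4 µM for 48 h. rhCYGB is recombinant human cytoglobin, a heme protein that binds oxygen, made in bacteria and added to the culture medium, and both groups carry the line's own genome without any other modification named in the labels. The labels do not say whether the 3 libraries of a group came from separate cultures, so the p-values measure the spread between these libraries, which may be technical. In bulk RNA, fewer cells of a kind and less RNA per cell cannot be told apart.

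A snoRNA host gene is transcribed and spliced like a messenger RNA, and its snoRNAs are trimmed out of the excised introns. Box C/D snoRNAs guide ribose methylation and box H/ACA snoRNAs guide pseudouridylation, mostly of ribosomal RNA. The spliced exons of many noncoding hosts hold only short reading frames and are degraded by nonsense-mediated decay once ribosomes engage them, and many hosts start with a 5′ terminal oligopyrimidine (TOP) run, as ribosomal protein genes do, which ties their translation to growth signalling through mTOR. GAS5 (growth arrest specific 5) was named for its accumulation in cells that stop growing.

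The letters around the start sites are shown because a pyrimidine run at the start is the defining feature of TOP genes. RefSeq promoter windows, 250 bases before to 50 after the annotated start on GRCh38.p14, were present for 8 of the 10 genes. Each line gives 40 bases before and 20 from the start, 5′ to 3′ on the gene's strand. Capitals mark the longest run of C and T that touches the 10 bases on either side of the start, and TATAA where it occurs between 50 and 15 bases before it.
GAS5, chr1:173869026-173869085, minus strand: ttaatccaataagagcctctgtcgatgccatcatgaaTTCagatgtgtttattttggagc
SNHG1, chr11:62855866-62855925, minus strand: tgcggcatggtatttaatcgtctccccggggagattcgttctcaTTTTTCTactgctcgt
SNHG5, chr6:85678714-85678773, minus strand: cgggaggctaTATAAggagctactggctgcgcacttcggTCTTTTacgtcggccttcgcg
SNHG7, chr9:136728165-136728224, minus strand: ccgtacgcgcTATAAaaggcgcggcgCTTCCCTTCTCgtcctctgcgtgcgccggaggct
SNHG8, chr4:118278722-118278781, plus strand: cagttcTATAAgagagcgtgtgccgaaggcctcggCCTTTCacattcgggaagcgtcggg
SNHG12, chr1:28581854-28581913, minus strand: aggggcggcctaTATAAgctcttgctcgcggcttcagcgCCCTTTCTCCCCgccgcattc
SNHG16, chr17:76557724-76557783, plus strand: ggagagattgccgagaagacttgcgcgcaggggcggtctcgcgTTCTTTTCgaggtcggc
ZFAS1, chr20:49278602-49278661, plus strand: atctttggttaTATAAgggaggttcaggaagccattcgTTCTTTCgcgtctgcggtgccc

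The longest run had a median of 7 bases in these 8 genes and of 4 bases in all 27305 windows. A run of at least 5 bases was present in 7 of the 8 genes and in 47.2% of all windows. Runs of at least 6 bases occurred in 7 genes against 30.7% of windows, and runs of at least 7 in 5 genes against 20.9%. These runs lie near the annotated start and not always at it. Those of SNHG5, SNHG8, SNHG12 and ZFAS1 cross the start. The run of SNHG7 ends before the start, and those of SNHG1 and SNHG16 begin at bases 5 and 4 after it. GAS5 was the gene with the short run in its RefSeq window. A GENCODE transcript of GAS5, matched to variant 10, starts farther downstream than that window's start. In the transcript table every GAS5 variant except variant 2 has the same start as variant 10. The first 40 bases of the GENCODE transcript open with a run of 6, in capitals.
GAS5 downstream start, chr1:173867950-173867989, GRCh38, minus strand: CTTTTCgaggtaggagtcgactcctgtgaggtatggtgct

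TATAA, searched on the gene's strand, was present in SNHG5, SNHG7, SNHG8, SNHG12 and ZFAS1, 5 of the 8 genes, and in 4.67% of all windows. CACGTG, the same on both strands and the letters of an E-box, was present in the window of 1 of the 8 genes, SNHG7, and in 7.43% of all windows. These were the 3 motif searches made. The TATAA search and the run lengths of 5, 6 and 7 were chosen after the sequences had been seen. A match describes letters in a window and shows no site in use.

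The libraries held between 34838399 and 42271299 counts. Levels are given as CPM, counts relative to library size after scaling by the trimmed mean of M values (TMM). Treated and untreated cells differed widely across the transcriptome, with 39.0% of tested genes called higher and 38.6% called lower after rhCYGB. A call needed an adjusted p under 0.05 in the quasi-likelihood fit of edgeR, with Benjamini-Hochberg adjustment across the 14728 genes. The epithelial markers KRT8 and KRT18 and the mesenchymal marker VIM were above 1000 CPM in every library. Of 13 markers of other cells, 11 were at or under 1 CPM in every library, and PTPRC, CD3E, PECAM1, DCN, PRSS1, CELA3A, INS and GCG were at 0. The other two moved in opposite directions. COL1A2 was at 138 to 149 CPM untreated and 6.25 to 7.92 CPM treated, and CD68 at 34.3 to 38.0 CPM untreated and 70.4 to 72.4 CPM treated. The summed level of the 13 was 175 to 184 CPM in untreated and 77.6 to 78.9 CPM in rhCYGB libraries. The part of these differences in the results below was not tested.

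All 10 genes rose after rhCYGB, against 39.0% of tested genes called higher. In each gene the 3 rhCYGB libraries lay above the 3 untreated ones, as they did in 39.8% of tested genes, while in 39.7% of tested genes all 3 lay below. At least 2-fold rises were seen in 7 of the 10, against 12.4% of tested genes. SNHG6, the closest of the 7 to that mark, was under it with total-count scaling, at a log2 fold change of 0.86. The median log2 fold change of the 10 was 1.44, beside -0.0046 over all tested genes. Because the 10 were chosen with earlier results of these data known, these comparisons describe them and do not test noncoding hosts as a group. Of 19 other tested noncoding snoRNA hosts, 4 rose and 9 fell. Among 993 other tested genes annotated as long noncoding RNA, 166 rose (16.7%), 419 fell, and the median was -0.47. The 10 genes together took between 0.0738 and 0.0797% of all counts in untreated libraries and between 0.201 and 0.212% in rhCYGB libraries. In every gene the direction and the call were the same in all 16 alternative analyses.

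**Figure D1:**
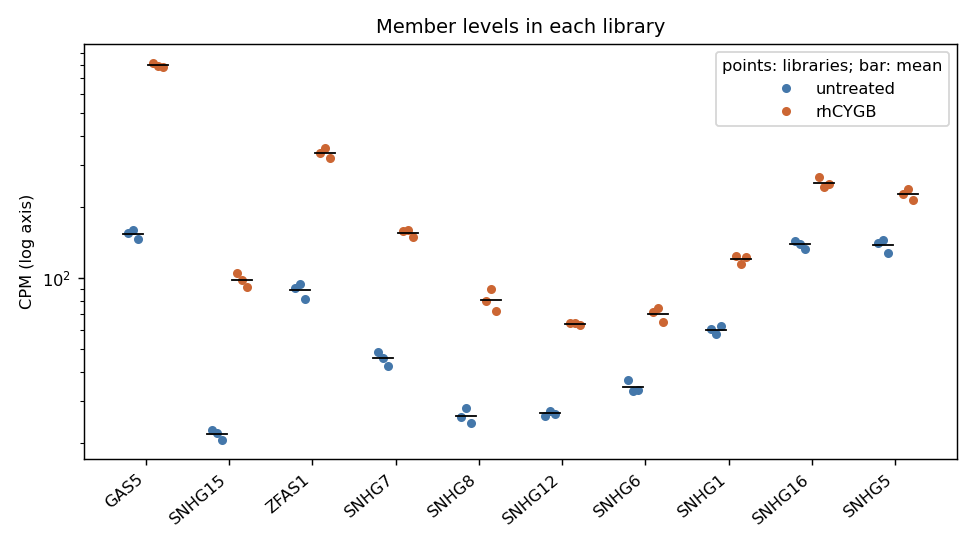
Level of each of the 10 genes in CPM (log axis) in the 3 untreated (blue) and 3 rhCYGB libraries (orange), ordered by fold change, with a bar at each group's mean. The groups do not overlap in any gene, and the gap is widest in GAS5 and narrowest in SNHG5.

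Of the hosts of box C/D snoRNAs, GAS5 rose the most. It was at 154, 159 and 146 CPM in the untreated libraries and at 814, 786 and 783 CPM in the rhCYGB libraries. The treated libraries lay close together and far above the untreated ones. The log2 fold change was 2.37 (SE 0.040), a 5.18-fold rise, with an adjusted p of 6.09e-16, and 98.0% of tested genes had a lower log2 fold change. The transcript table places GAS5 on chromosome 1 from 173833037 to 173838020, on a build that its header does not name.

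ZFAS1, the noncoding gene beside ZNFX1 on chromosome 20 and host of the SNORD12 family, was at 90.5, 94.4 and 81.3 CPM in untreated and at 338, 354 and 323 CPM in rhCYGB libraries. Its log2 fold change was 1.93 (SE 0.053), a 3.81-fold rise (adjusted p = 6.91e-14, edgeR). The groups were separated by a wide margin, as in GAS5.

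SNHG1 on chromosome 11, host of SNORD22 and SNORD25 to SNORD31, was at 60.5, 57.9 and 62.4 CPM untreated and at 123, 114 and 122 CPM after rhCYGB. The rise was 1.99-fold, just under the 2-fold mark (log2 fold change 0.99, SE 0.046, edgeR adjusted p = 2.14e-11). SNHG6 on chromosome 8, host of SNORD87, lay just above the same mark at 2.03-fold, with 37.0, 33.0 and 33.5 CPM untreated and 71.4, 74.5 and 64.8 CPM treated (log2 fold change 1.02, SE 0.061, edgeR adjusted p = 4.36e-10).

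The 2 smallest rises were those of SNHG16 on chromosome 17, host of SNORD1A to SNORD1C, and SNHG5 on chromosome 6, host of SNORD50A and SNORD50B. SNHG16 was at 143, 140 and 133 CPM untreated and at 268, 243 and 249 CPM treated, a 1.83-fold rise (log2 fold change 0.87, SE 0.044, edgeR adjusted p = 6.86e-11). SNHG5 was at 141, 144 and 127 CPM untreated and at 226, 238 and 213 CPM treated, a 1.64-fold rise (log2 fold change 0.71, SE 0.051, edgeR adjusted p = 4.09e-09). Both were among the more abundant of the 10 in untreated cells.

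The hosts of box H/ACA snoRNAs each rose more than 2-fold. SNHG15 on chromosome 7, host of SNORA9, was at 22.7, 22.0 and 20.5 CPM untreated and at 105, 97.7 and 91.4 CPM treated. Its 4.51-fold rise was second to that of GAS5 among the 10 (log2 fold change 2.17, SE 0.059, edgeR adjusted p = 6.41e-14). SNHG7 on chromosome 9, host of SNORA17A and SNORA17B, was at 48.6, 45.7 and 42.4 CPM untreated and at 158, 159 and 149 CPM treated (3.41-fold, log2 fold change 1.77, SE 0.051, edgeR adjusted p = 1.10e-13).

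SNHG8 on chromosome 4, host of SNORA24, was at 25.7, 28.0 and 24.2 CPM untreated and at 79.8, 89.4 and 72.1 CPM treated. It had the largest standard error of the 10, with a 3.09-fold rise (log2 fold change 1.63, SE 0.074, edgeR adjusted p = 2.02e-11). SNHG12 on chromosome 1, which carries SNORA16A, SNORA44, SNORA61 and the box C/D snoRNA SNORD99, was at 26.1, 27.3 and 26.6 CPM untreated and at 64.7, 64.1 and 63.1 CPM treated. It rose 2.40-fold with a tight spread in both groups (log2 fold change 1.26, SE 0.048, edgeR adjusted p = 2.15e-12).

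Levels were compared between genes in FPKM, which divides by transcript length. In untreated cells SNHG5 led at 253 ± 14.8 FPKM (SD, n = 3), followed by GAS5 at 226 ± 8.52 and ZFAS1 at 99.1 ± 4.97. SNHG16, SNHG8, SNHG6, SNHG1 and SNHG7 came next between 38.8 and 52.8 FPKM, each overlapping its neighbour in the order. SNHG12 at 26.4 ± 0.386 and SNHG15 at 23.3 ± 1.10 were lowest. After rhCYGB the order differed along its length. GAS5 stood first at 1058 ± 34.0 FPKM, SNHG5 second at 370 ± 12.4 followed by ZFAS1 at 324 ± 19.1. SNHG7 moved from rank 8 to rank 4 at 135 ± 3.43 FPKM, clear of the gene below it, and SNHG16 from rank 4 to rank 7 at 84.2 ± 5.34 FPKM. SNHG15 moved from rank 10 to rank 6 at 95.8 ± 6.33 FPKM, overlapping SNHG8 at 112 ± 10.6, and SNHG12 was last at 67.0 ± 1.20.

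The snoRNAs have rows of their own in the gene table. The library kit was made for mRNA, so these rows do not measure mature snoRNA. They hold few reads, and the cause of this was not tested. Of 36 snoRNA rows inside the 10 genes, 22 could be tested. Of these, 5 were called higher and 0 lower (edgeR), against 39.0% and 38.6% of all tested genes. All 5 were in GAS5, where 10 of 11 rows were tested. For comparison, of 94 tested snoRNA rows outside the 10 genes, 32 rose and 4 fell, with a median log2 fold change of 0.43. In 4 of the 36 rows the count was 1 in every library.

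In GAS5, SNORD76 had 65, 92 and 79 counts untreated and 161, 115 and 148 counts treated (log2 fold change 1.04, SE 0.17, edgeR adjusted p = 5.22e-05). SNORD79 had 70, 93 and 88 counts untreated and 140, 114 and 158 counts treated (log2 fold change 0.91, SE 0.17, edgeR adjusted p = 0.000169). These 2 calls held when any library was left out. SNORD77 (log2 fold change 0.91), SNORD80 (0.49) and SNORD47 (0.38) were called too, but under total-count scaling none of these 3 was, and the SNORD77 call was lost without any single library except rhCYGB replicate 3. The SNORD80 call was lost without untreated replicate 2 or 3 or rhCYGB replicate 1 or 3, and the SNORD47 call without untreated replicate 2 or rhCYGB replicate 1. The 5 tested rows not called were SNORD44 (0.55, edgeR adjusted p = 0.0505), SNORA103 (0.50), SNORD78 (0.25), SNORD74 (0.16) and SNORD81 (-0.27).

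Summed over its 11 snoRNA rows, GAS5 had 607, 725 and 663 counts untreated and 917, 700 and 904 counts treated, from 16.2 ± 0.0592 to 23.4 ± 2.06 CPM (SD, n = 3), a 1.44-fold difference beside the 5.18-fold rise of the host. The log2 ratio of host over snoRNA counts was 3.24, 3.30 and 3.17 untreated and 5.04, 5.22 and 5.00 treated. Every treated ratio lay above every untreated one. An exact two-sided permutation test over the 6 libraries gave p = 0.10, the smallest this design allows (0.111 adjusted over the 10 hosts). The same exact permutation test also gave p = 0.10 in SNHG7, whose snoRNA rows summed to 2 counts in every library. Among the 10 hosts, treated and untreated ratios overlapped only in SNHG16. Because a rise of the host alone can separate the ratios, the test cannot show a divergence particular to one host.

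In SNHG1, 7 of 8 snoRNA rows were tested and none was called, with log2 fold changes from -0.58 (SNORD30) to 0.24 (SNORD27). The 8 rows summed to 181, 203 and 217 counts untreated and 168, 139 and 158 treated, a ratio of 0.883, while SNHG1 itself rose 1.99-fold. The log2 ratio of host over snoRNA counts rose from 3.64, 3.68 and 3.55 to 4.77, 4.77 and 4.83 (exact permutation p = 0.10, adjusted 0.111). The limit of this test given for GAS5 holds for SNHG1 too. The other 8 hosts had 46 snoRNA counts or fewer per library, and their tested rows were not called. SNORD50B, with 15 counts or fewer per library, had a log2 fold change of -0.75 (edgeR adjusted p = 0.186), its treated libraries below the untreated ones. The others were SNORA16A (-0.33), SNORA24 (0.0071), SNORD87 (0.056) and SNORA9 (0.26). Several SNHG1 snoRNAs are shown with the conserved boxes C and D (GATGA and CTGA) in capitals, on GRCh38, minus strand.
SNORD26, chr11:62855292-62855366: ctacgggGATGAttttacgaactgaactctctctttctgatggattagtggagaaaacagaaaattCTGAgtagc
SNORD27, chr11:62855012-62855083: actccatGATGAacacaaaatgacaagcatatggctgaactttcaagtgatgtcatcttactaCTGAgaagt
SNORD28, chr11:62854621-62854695: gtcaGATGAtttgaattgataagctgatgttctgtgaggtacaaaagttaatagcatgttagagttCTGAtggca
SNORD30, chr11:62853663-62853732: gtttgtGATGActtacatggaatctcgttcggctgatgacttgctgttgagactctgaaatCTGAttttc

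**Figure D2:**
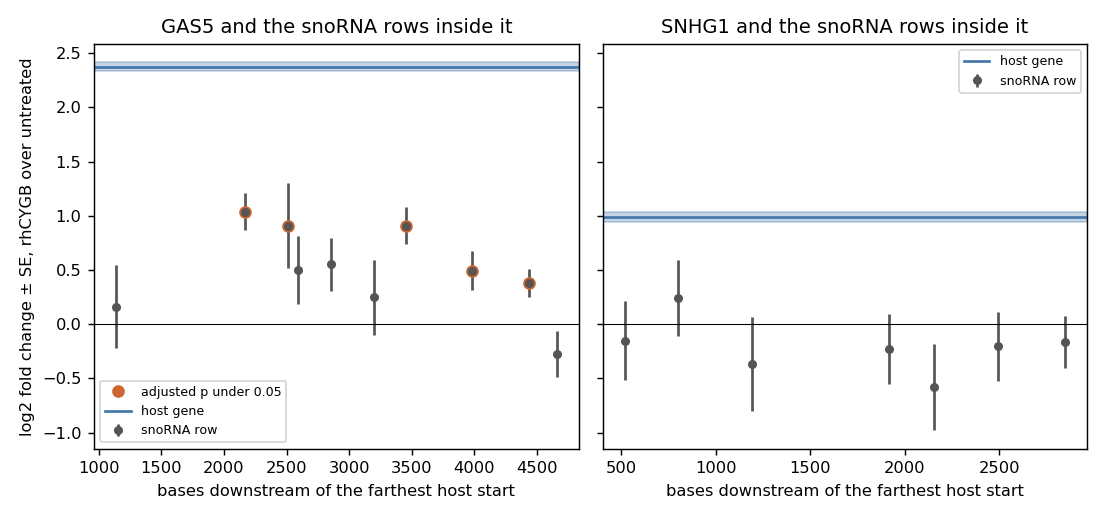
Log2 fold change (rhCYGB over untreated, bars are SE) of each tested snoRNA row in GAS5 and SNHG1 against its distance in bases from the farthest host start. The host gene is a blue line, and called rows are filled orange points. The host lines, at 2.37 and 0.99, lie above every snoRNA row of their gene.

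Transcript variants were assigned by the authors' assembler from the same reads, so their counts are estimates. Of the 56 variants tested, 24 rose and 1 fell at an adjusted p under 0.05, against 15.1% and 14.8% of all tested transcripts (edgeR). Without untreated replicate 3 the calls numbered 15 higher and 1 lower. The use of a variant, its change relative to the rest of its gene, was called in 4 (GAS5 variants 1 and 4 and SNHG1 variant 1 up, SNHG12 variant 5 down), against 2.40% of transcripts, 1.44% up and 0.953% down (edgeR diffSpliceDGE). Without untreated replicate 3 or without rhCYGB replicate 2, 2 such calls were made, and 11 (5 up and 6 down) when only transcripts with at least 10 counts in every library were fitted.

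GAS5 variant 1 had 57, 66 and 226 counts untreated and 15419, 7187 and 3085 counts treated, and variant 4 had 90, 48 and 80 untreated and 8681, 4067 and 561 treated. The variants of GAS5 thus split differently among the 3 rhCYGB libraries, variant 1 taking 51.0%, 27.5% and 10.7% of the gene, while the gene's CPM differed by 1.04-fold between its highest and lowest treated library. SNHG1 variant 1 took 20.9%, 36.0% and 15.1% of its gene untreated and 59.5%, 65.0% and 58.8% treated. The log2 change in use was 4.01 for GAS5 variant 1 (adjusted p = 4.09e-06, diffSpliceDGE) and 1.37 for SNHG1 variant 1 (adjusted p = 0.00584).

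SNHG12 variant 5 was the variant that fell. It had 411, 599 and 541 counts untreated and 204, 161 and 178 treated, and its share went from 47.0 ± 4.14% to 7.90 ± 0.517% (SD, n = 3) while the gene rose (log2 fold change -1.39, SE 0.16, edgeR adjusted p = 0.00190). Its use fell by 2.57 on the log2 scale (adjusted p = 0.0207, diffSpliceDGE). Variants 1 and 4 of SNHG12 rose, with log2 fold changes of 2.40 and 2.81. In SNHG8, variant 1 went from 69.4 ± 1.21% to 92.6 ± 2.06% of the gene, and in SNHG7 variant 3 went from 8.79 ± 1.29% to 18.5 ± 0.527%, without a call for changed use.

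**Figure D3:**
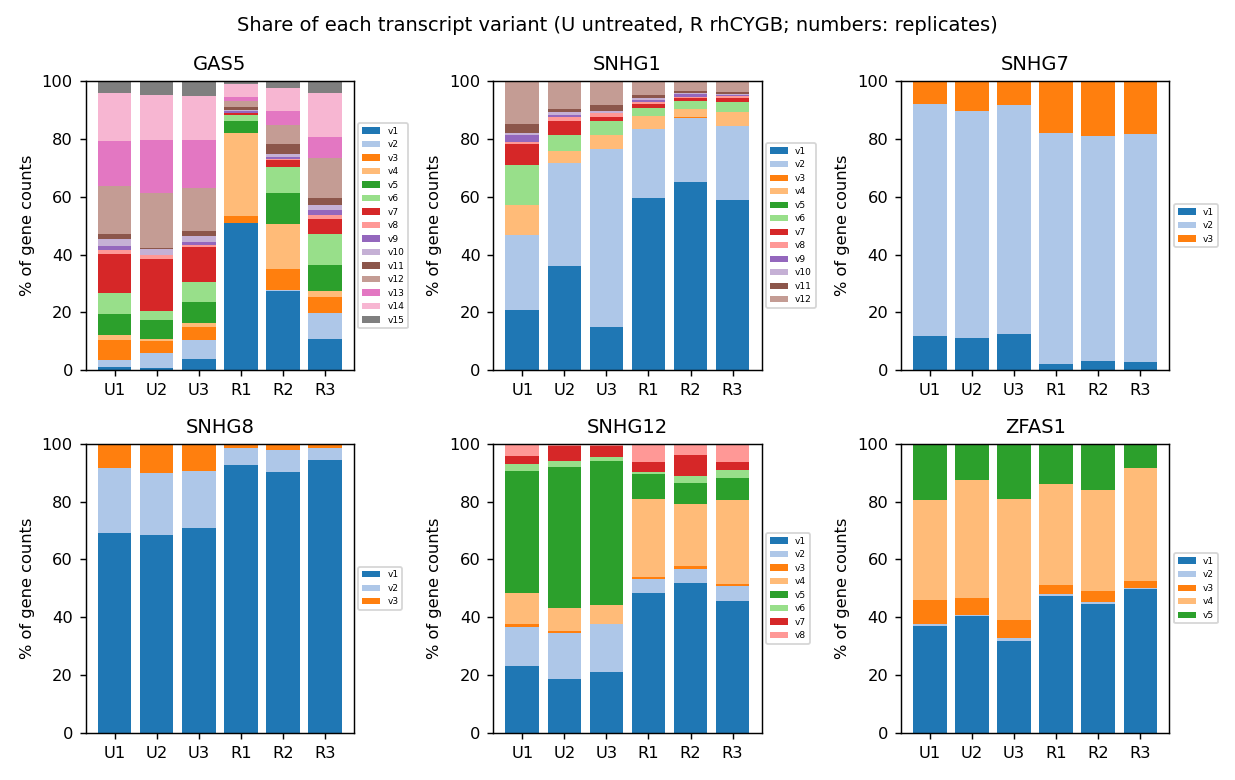
Share of the gene's counts (%) taken by each transcript variant (v, coloured) in each untreated (U) and rhCYGB (R) library for 6 genes. SNHG12 variant 5 shrinks in all 3 treated libraries, and the GAS5 variants differ among the treated libraries.

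After the values had been seen, 14 variants were matched to a single GENCODE transcript within 20 bases of length, and 3 of them held a snoRNA sequence of their host, searched without 5 bases at each end. Sequences were at hand for 22 of the 36 snoRNA rows, and for none of those in GAS5. SNHG12 variants 5 and 2 hold SNORA61, and variant 2 went from 15.3 ± 1.64% to 5.07 ± 0.0866% of its gene. SNHG7 variant 1 holds SNORA17A and SNORA17B and went from 11.8 ± 0.726% to 2.77 ± 0.610%. In all 3 the treated shares lay below the untreated ones, as in 18 of the 55 variants of these genes that have a tested partner and in 13.4% of all such transcripts. Among the 11 matched variants in which none of the searched sequences was found, 2 lay below and 1 above. These 11 include 2 GAS5 variants, which could not be searched, and 1 of SNHG1, whose SNORD29 and SNORD31 had no sequence. The letters of SNORA61 and SNORA17A are given on GRCh38, minus strand, with the ACA box in capitals.
SNORA61, chr1:28579764-28579893: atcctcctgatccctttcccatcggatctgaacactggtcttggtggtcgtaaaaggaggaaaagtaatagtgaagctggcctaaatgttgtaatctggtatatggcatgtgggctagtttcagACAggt
SNORA17A, chr9:136726747-136726879: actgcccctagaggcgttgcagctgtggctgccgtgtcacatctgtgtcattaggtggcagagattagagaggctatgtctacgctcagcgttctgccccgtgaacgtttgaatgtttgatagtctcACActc

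Several of the 10 genes share a start region or overlap with protein-coding genes on the other strand. SLC3A2, which encodes the heavy chain of amino acid transporters such as the cystine transporter, starts 224 bases from SNHG1. It was at 93.7, 91.8 and 77.7 CPM untreated and at 995, 938 and 956 CPM treated, a log2 fold change of 3.46 (SE 0.060, edgeR adjusted p = 7.04e-16), beside 0.99 for SNHG1. ZNFX1, a helicase gene that starts 121 bases from ZFAS1, was at 72.1, 70.0 and 75.2 CPM untreated and at 72.6, 73.9 and 81.2 CPM treated. Its log2 fold change of 0.07 was not called (edgeR adjusted p = 0.226) and was -0.10 under total-count scaling, while ZFAS1 rose 3.81-fold.

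ZBTB37, a zinc finger gene, overlaps only the longest GAS5 isoform, variant 2. It starts at 173837220 on the unnamed build. Every other GAS5 variant starts close by at 173837129, on the other strand and without overlap. ZBTB37 had a log2 fold change of 0.28 (SE 0.084, edgeR adjusted p = 0.00624), and this call was lost under total counts (adjusted p = 0.202). DIPK1B, which overlaps SNHG7 only at its end, fell by 0.36 on the log2 scale (SE 0.079, edgeR adjusted p = 0.000808). TRNAU1AP, which overlaps SNHG12 only at its end, rose by 0.24 (SE 0.091, edgeR adjusted p = 0.0263) with overlapping groups. The TRNAU1AP call was lost under total counts and without untreated replicate 1 or 3 or rhCYGB replicate 1 or 2. The kit marks strand, but whether the counting used it is not given in the sources used here. GAS5-AS1, antisense to GAS5, had 1 to 6 counts per library and could not be tested.

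**Figure D4:**
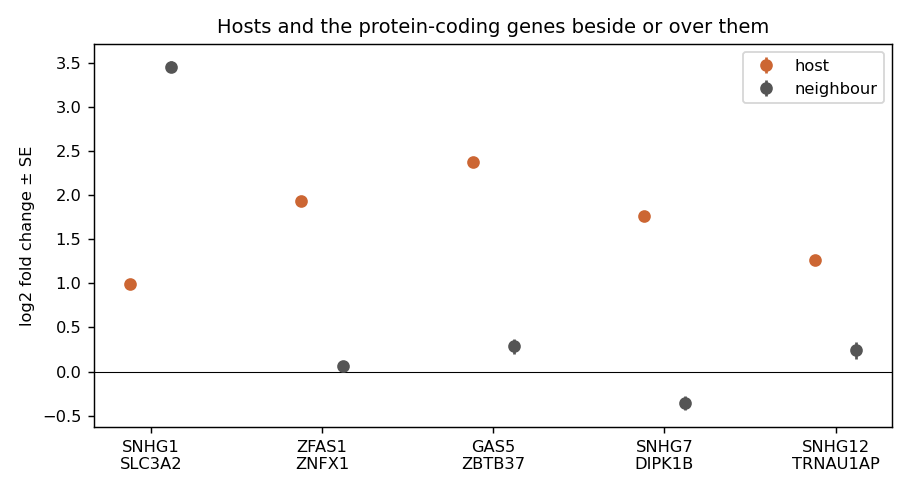
Log2 fold change (rhCYGB over untreated, bars are SE) of 5 host genes (orange) and of the protein-coding gene beside or overlapping each (grey). SLC3A2 lies above SNHG1, and the other 4 neighbours lie below their hosts.

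Other noncoding snoRNA hosts moved in both directions. Of 25 listed, 23 were in the table and 19 could be tested, of which 4 rose and 9 fell, with a median log2 fold change of -0.65, beside 39.0% and 38.6% of all tested genes. SNHG17 rose from 12.3 ± 0.451 to 79.1 ± 3.39 CPM (log2 fold change 2.69), EPB41L4A-AS1 from 23.8 ± 0.813 to 124 ± 9.20 CPM (2.37) and SNHG32 from 55.6 ± 4.06 to 277 ± 9.51 CPM (2.31). SNHG30 fell by 1.96, SNHG10 by 1.51 and SNHG14 by 1.31 on the log2 scale.

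Of 45 protein-coding genes that host snoRNAs, 35 rose and 5 fell, beside 39.0% and 38.6% of all tested genes, with a median log2 fold change of 0.24, and under total-count scaling 21 rose and 10 fell. TAF1D, a subunit of the RNA polymerase I selectivity factor, rose the most at 2.14, followed by HSPA9, a mitochondrial chaperone, at 1.51 and PPAN, a ribosome assembly factor, at 1.34. ATP5F1B, a subunit of ATP synthase, fell by 0.45, CNOT1 by 0.39 and CCT6A by 0.29 on the log2 scale.

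**Figure D5:**
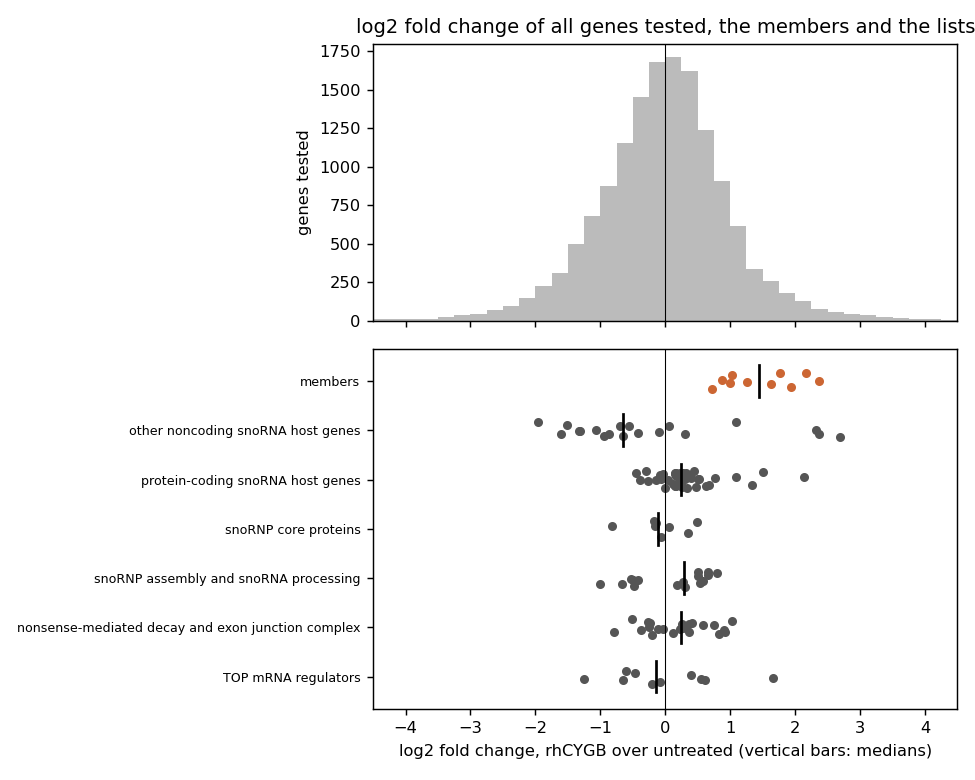
Upper panel: number of tested genes per log2 fold change bin of 0.25 (rhCYGB over untreated). Lower panel: log2 fold change of the 10 genes (orange) and of each gene list (grey), with a bar at each median. The 10 genes all lie above 0, and the other lists spread to both sides.

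Proteins that act on snoRNAs and on host transcripts changed in both directions. Of the 8 core proteins of snoRNA particles, 2 rose and 4 fell, with a median of -0.11, beside 39.0% and 38.6% of all tested genes. NHP2, of the H/ACA particle, fell by 0.82 on the log2 scale, SNU13 by 0.18 and NOP58 by 0.16, while GAR1 rose by 0.48 and NOP10 by 0.35. Of 16 assembly and processing genes, 10 rose and 6 fell, beside the same 39.0% and 38.6%. NUFIP1 (0.79), NAF1 (0.66) and ZNHIT6 (0.66) rose, and RUVBL1, an ATPase of the assembly complex, fell by 1.01, SHQ1 by 0.67 and DBR1, the lariat debranching enzyme, by 0.53.

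Of 22 genes of nonsense-mediated decay and the exon junction complex, 12 rose and 7 fell, with a median of 0.24, beside 39.0% and 38.6% of all tested genes. Under total counts 9 rose and 9 fell, close to those shares. SMG1, the kinase that phosphorylates UPF1, rose by 1.03 and CASC3 by 0.92. RBM8A fell by 0.79, EIF4A3 by 0.52 and PNRC2 by 0.37 on the log2 scale, the first 2 being core exon junction proteins. Of 10 regulators of TOP mRNAs, 4 rose and 5 fell, close to the 39.0% and 38.6% of all tested genes. EIF4EBP1, a repressor of cap-dependent translation, rose by 1.66, TIAL1 by 0.60 and MLST8 by 0.55, while EIF4EBP2 fell by 1.25, TIA1 by 0.66 and MTOR, the kinase of the TOP pathway, by 0.60 on the log2 scale.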

How the data were processed

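RNA-seq of 3 untreated and 3 rhCYGB-treated MIA PaCa-2 libraries was analysed. Per the labels and methods, stranded mRNA libraries were checked with FastQC 0.11.7, mapped with HISAT2 2.1.0 and assembled with StringTie 2.1.3b. The deposited read counts, per gene and per transcript, are whole and unnormalized, and the deposited FPKM were scaled by the authors to transcript length and depth. The submitters' notes name the mouse build mm10 for these human cells, and the deposited positions are not those of GRCh38, so RefSeq and GENCODE sequences were matched by name. The 12 TPM columns were not used.

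Counts were tested with edgeR 4.0.16 in R 4.3.3 (filterByExpr, TMM, quasi-likelihood F test, prior count 2, Benjamini-Hochberg adjustment over all features, no block), and isoform use with diffSpliceDGE. Calls needed an adjusted p under 0.05. Alternatives were other scalings, filters, gene counts summed from transcripts, DESeq2 1.42.0, limma 3.58.1 on log2(FPKM + 1) and log2(FPKM + 0.1), the replicate block and leaving out each library. The scripts were tested on simulated data, where transcript-level tests seldom recovered 2-fold changes.

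The members, the 6 gene lists and the tests were chosen with earlier results of these data known. Named were all members and tested snoRNA rows, neighbours that overlap a member or start within 1000 bases of its start, and the 3 largest called rises and falls of each list with a mean of at least 100 counts in the higher group, except 1 gene and 1 sequence that are not reported here. Of 56 tested variants, those described in detail were chosen after their values were seen. SE is the log2 fold change divided by the square root of F. Counting intervals were not used, and few reads limit the snoRNA rows.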

Additional observations from a re-analysis of the deposited data

How the results depend on the processing

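All 10 genes kept their direction and call in the 16 alternatives. Log2 fold changes ran from 2.21 to 2.40 for GAS5 and from 0.55 to 0.76 for SNHG5. They ran from 0.84 to 1.08 for SNHG6 and from 0.83 to 1.02 for SNHG1, on both sides of the 2-fold mark. Upper-quartile and total-count scaling moved the median of all tested genes by -0.14 and -0.16. With limma on log2(FPKM + 1), 1977 genes changed 2-fold against 3998. The single 2-fold nonsense-mediated decay gene was lost (0) under upper-quartile factors, total counts and both limma settings, and the 2-fold count for snoRNA assembly genes ranged from 0 (without rhCYGB replicate 3) to 1 when a library was left out. Member transcripts called numbered 16 to 23 when a library was left out, against 25, and those with changed use 2 to 4, against 4. With at least 10 counts in every library, 11 had changed use. Samples with the same replicate number did not deviate together (r = -0.048, 0.0072 and 0.0055, and not every library correlated best with its own number). Under the replicate block, 15 member transcripts were called, 11351 genes changed against 11427, and all 10 members stayed called. The cause of these shifts was not tested. Few reads limit the snoRNA rows, of which 14 of 36 could not be tested. For the transcript estimates, a missing call says little about changes near 2-fold.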
